A study of Caenorhabditis elegans with 20 samples.

Results

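The response of *Δdhgd-1* mutant *C. elegans* to vitamin B12 was measured in 10 of the 20 RNA-seq libraries of the study, chosen by their labels alone: 5 libraries from mutants given vitamin B12 and 5 from mutants without it. The mutants carry *dhgd-1(tm6671)*, a large deletion at the 5′ end of the gene for D-2-hydroxyglutarate dehydrogenase, backcrossed to the wild-type N2 strain. Supplemented mutants grew on nematode growth medium with 64 nM adenosylcobalamin, a form of vitamin B12, and unsupplemented mutants on the same medium without it. All animals ate the bacterium *E. coli* OP50 and were lysed as day 1 adult bodies, without their eggs. The other 10 libraries are from wild-type animals with and without 64 nM vitamin B12, which entered the estimate of the spread and the test of whether both strains responded alike. The stock plates of every strain held vitamin B12 too, so unsupplemented animals came from supplemented stocks. The strain is a single deletion allele, and each library is a pool of whole animals, in which fewer cells of a type and less RNA per cell cannot be told apart. The labels number the replicates, and the methods describe biological replicates.

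Vitamin B12 is the cofactor of only a few animal enzymes, among them methylmalonyl-CoA mutase, which finishes the canonical breakdown of propionyl-CoA, and methionine synthase. When it is scarce, as on *E. coli* OP50, *C. elegans* turns on a propionate shunt that passes through 3-hydroxypropionate and malonic semialdehyde to acetyl-CoA. The shunt enzyme HPHD-1 makes D-2-hydroxyglutarate as it works, and DHGD-1 turns that product back into α-ketoglutarate. The comparison asks which transcripts differ with vitamin B12 in animals that lack DHGD-1.

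The libraries held 3835215 to 15457950 counts in supplemented mutants and 4353336 to 13870360 in unsupplemented mutants, over 22736 genes. Levels are given below as CPM, a library's counts scaled to its total, always in the order of replicates 1, 2, 5, 6 and 7. Replicates 1 and 2 carry the library name series "olga" and replicates 5, 6 and 7 the series "s". The series separated the libraries on the first principal component, which held 49.2% of the variance, and vitamin B12 separated them on the second, with 15.1% and scores of 7.80 to 42.8 in supplemented mutants and -26.4 to -11.6 in unsupplemented mutants. Summed marker levels overlapped between supplemented and unsupplemented mutants for oocytes and eggshell (11490 to 17080 and 13200 to 16030 CPM), intestine (2500 to 5085 and 2485 to 4835 CPM) and body wall muscle (9602 to 12070 and 9309 to 12090 CPM). Markers of these 3 sources were read in every mutant library. All 11 neuron markers had a log2 fold change below 0 (median -0.37), and their levels are given below. Of the markers, 3 of 12 early embryo and 12 of 53 sperm genes were high enough to be tested, and none of them passed. *dhgd-1* itself had 11, 18.8, 22.5, 13.1 and 5.86 CPM in supplemented mutants, against 51.8, 59.3, 33.1, 18.2 and 25.9 CPM in unsupplemented mutants. Reads outside the deleted part are counted there, so these counts cannot check the genotype.

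**Figure D1:**
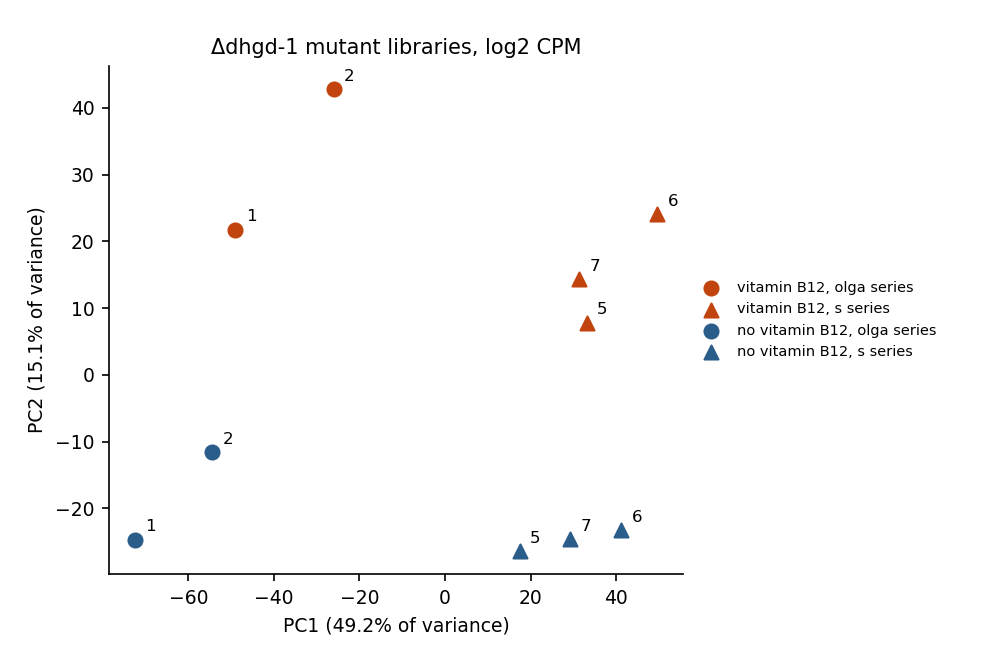
Principal components of log2 CPM in the 10 *Δdhgd-1* mutant libraries, with PC1 (49.2% of the variance) on the x axis and PC2 (15.1%) on the y axis; colour gives the supplement and shape the library series. The series lie apart on PC1, and the 5 supplemented libraries lie above the 5 unsupplemented ones on PC2.

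Vitamin B12 raised 95 and lowered 115 of the 11270 genes tested in the mutants. A gene was called when edgeR's quasi-likelihood test, with library series as a covariate, gave a Benjamini-Hochberg adjusted p under 0.05 over all genes tested and the fold change exceeded 1.5. The calls are 0.843% of the tested genes in the higher direction and 1.02% in the lower one, and the median log2 fold change of all tested genes was 0.01. Counts of calls in the gene families below are to be read beside these shares. Groups did not overlap, meaning that all 5 supplemented libraries lay on the same side of all 5 unsupplemented ones, for 129 of the 210 called genes and for 265 of all tested genes (2.35%). With the replicate number as a block, 151 genes were higher and 221 lower, and all 210 calls were kept. On leaving out each of the 10 mutant libraries in turn, 117 of the 210 calls were kept every time (46 of the higher and 71 of the lower genes). Of the 210 called genes, 208 are annotated as protein-coding, 76 have only a sequence name, and 76 overlap a neighbouring gene (30 of them on the same strand), whose reads could have been counted with theirs.

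**Figure D2:**
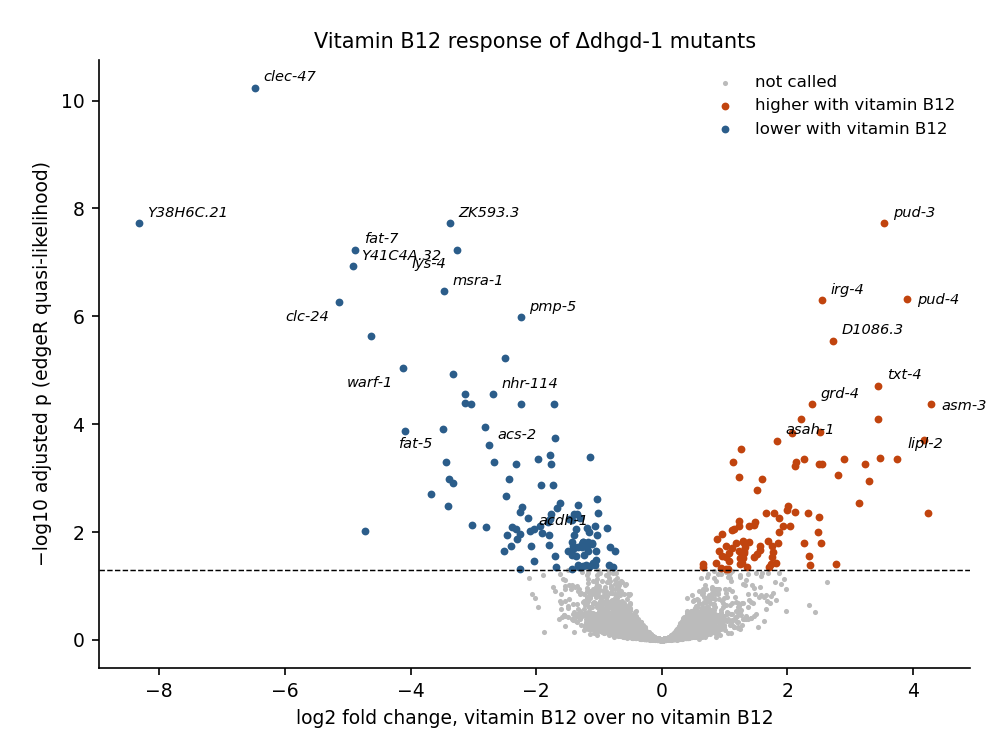
Each point is a tested gene, with the log2 fold change of supplemented over unsupplemented *Δdhgd-1* mutants on the x axis and −log10 of the adjusted p on the y axis; the dashed line marks an adjusted p of 0.05. The 95 genes called higher and the 115 called lower are coloured, and *clec-47* and *Y38H6C.21* lie farthest out among the lower genes.

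Propionate shunt genes were lower with vitamin B12. Of the 5 genes, 4 passed the test and all 5 lay below 0, with a median log2 fold change of -1.33 against 0.01 over all genes, of which 5478 of 11270 lay below 0. *acdh-1*, the acyl-CoA dehydrogenase that opens the shunt, had 36.9, 110.0, 112, 42.2 and 14.5 CPM in supplemented mutants, against 428, 295, 214, 214 and 247 CPM in unsupplemented mutants (log2 fold change -2.10 ± 0.45 (SE), adjusted p = 0.00973). The groups did not overlap, and the supplemented libraries spread widely, with replicate 7 lowest. *hphd-1*, the 3-hydroxypropionate dehydrogenase, had 81.9, 86.8, 61.2, 38.9 and 19.5 CPM in supplemented mutants, against 298, 194, 111, 97.1 and 129 CPM in unsupplemented mutants (log2 fold change -1.47, adjusted p = 0.00578), again with replicate 7 lowest and no overlap. *hach-1*, the hydrolase before it, averaged 249 ± 110.2 CPM in supplemented mutants and 679.8 ± 372 CPM in unsupplemented mutants (SD, n = 5 each) (log2 fold change -1.33 ± 0.25 (SE), adjusted p = 0.00317), and its groups overlapped, with higher levels in the olga series in both groups. The enoyl-CoA hydratase gene *ech-6* had 170.0, 304, 268, 196 and 169 CPM in supplemented mutants, against 535, 554, 365, 461 and 424 CPM in unsupplemented mutants (log2 fold change -1.03, adjusted p = 0.00243), and its groups did not overlap. *alh-8*, whose product closes the shunt, had 716, 636, 506, 358 and 339 CPM in supplemented mutants, against 1188, 906, 656, 665 and 608 CPM in unsupplemented mutants. It missed the call (log2 fold change -0.62, adjusted p = 0.247) but passed it with the replicate block (adjusted p = 0.0377). *acdh-2*, a close paralog of *acdh-1* whose reads could be shared with it, was lower too (log2 fold change -1.91 ± 0.41 (SE), adjusted p = 0.0102). In both paralogs replicates 1 and 7 were lowest in the supplemented group.

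No call fell in the canonical branch of propionate breakdown or in vitamin B12 handling, where 8 genes were tested and the median log2 fold change was -0.09. The propionyl-CoA carboxylase genes *pcca-1* and *pccb-1* stood at -0.02 and 0.01, the epimerase gene *mce-1* at 0.05, the mutase gene *mmcm-1* at -0.27, and *mmaa-1*, *mmab-1*, *cblc-1* and the transporter gene *mrp-5* at -0.39, -0.16, -0.15 and 0.03 on the log2 scale. In the methionine and S-adenosylmethionine (SAM) cycle, 8 of 9 genes tested lay below 0 and 1 passed. That gene, *ahcy-1*, encodes S-adenosylhomocysteine hydrolase, and it had 1502, 1792, 1155, 1370 and 1089 CPM in supplemented mutants, against 4556, 2903, 2745, 2393 and 2477 CPM in unsupplemented mutants (log2 fold change -1.06 ± 0.22 (SE), adjusted p = 0.00764). All supplemented libraries lay below all unsupplemented ones. Log2 fold changes of the members that did not pass were -0.84 for *sams-1*, a SAM synthetase (adjusted p = 0.448), -0.64 for *metr-1*, the methionine synthase, -0.56 for *mthf-1*, -0.49 for *mel-32*, -0.44 for *mtrr-1*, -0.23 for *sams-3*, -0.16 for *dao-3* and 0.02 for *sams-4*. The folate transporter gene *folt-2*, named after its values were seen, had 50.8, 120.2, 215, 122 and 101 CPM in supplemented mutants, against 274, 237, 356, 248 and 306 CPM in unsupplemented mutants (log2 fold change -1.25 ± 0.28 (SE), adjusted p = 0.0155). Its groups did not overlap, but the call was lost without replicate 1 of either group (adjusted p up to 0.0586).

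Transsulfuration genes, which carry homocysteine on to cysteine, had calls in the higher direction. Of 15 tested, 2 were higher and none lower. *cbs-1*, a cystathionine β-synthase gene, had 44.9, 35.2, 18.2, 25.1 and 26.2 CPM in supplemented mutants, against 14.2, 9.19, 7.80, 9.01 and 11.2 CPM in unsupplemented mutants (log2 fold change 1.51 ± 0.27 (SE), adjusted p = 0.00168). *cth-2*, a cystathionine γ-lyase gene, had 310.2, 259, 212, 303 and 334 CPM in supplemented mutants, against 197, 165, 127, 155 and 122 CPM in unsupplemented mutants (log2 fold change 0.96 ± 0.21 (SE), adjusted p = 0.0108). Neither gene's groups overlapped, with *cth-2* separated by a narrow margin. The *cth-2* call was lost without supplemented replicate 6 or 7 (adjusted p up to 0.0578), and a gene on the opposite strand overlaps it. *msra-1*, a methionine sulfoxide reductase gene, had 18.03, 25.6, 25.6, 25.8 and 40.9 CPM in supplemented mutants, against 462, 244, 218, 306 and 314 CPM in unsupplemented mutants (log2 fold change -3.46 ± 0.33 (SE), adjusted p = 3.38e-07), so the lowest unsupplemented library was several times the highest supplemented one. The gene *insc-1* overlaps *msra-1* on the opposite strand. In phosphatidylcholine synthesis, which consumes SAM, 1 of 10 genes passed: the choline kinase gene *ckb-2* was lower (log2 fold change -1.40, adjusted p = 0.0112). The phosphoethanolamine methyltransferase genes *pmt-1* and *pmt-2* had log2 fold changes of -0.60 and -0.46 and did not pass, and the other members lay between -0.76 (*cka-2*) and 0.07 (*cept-2*).

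**Figure D3:**
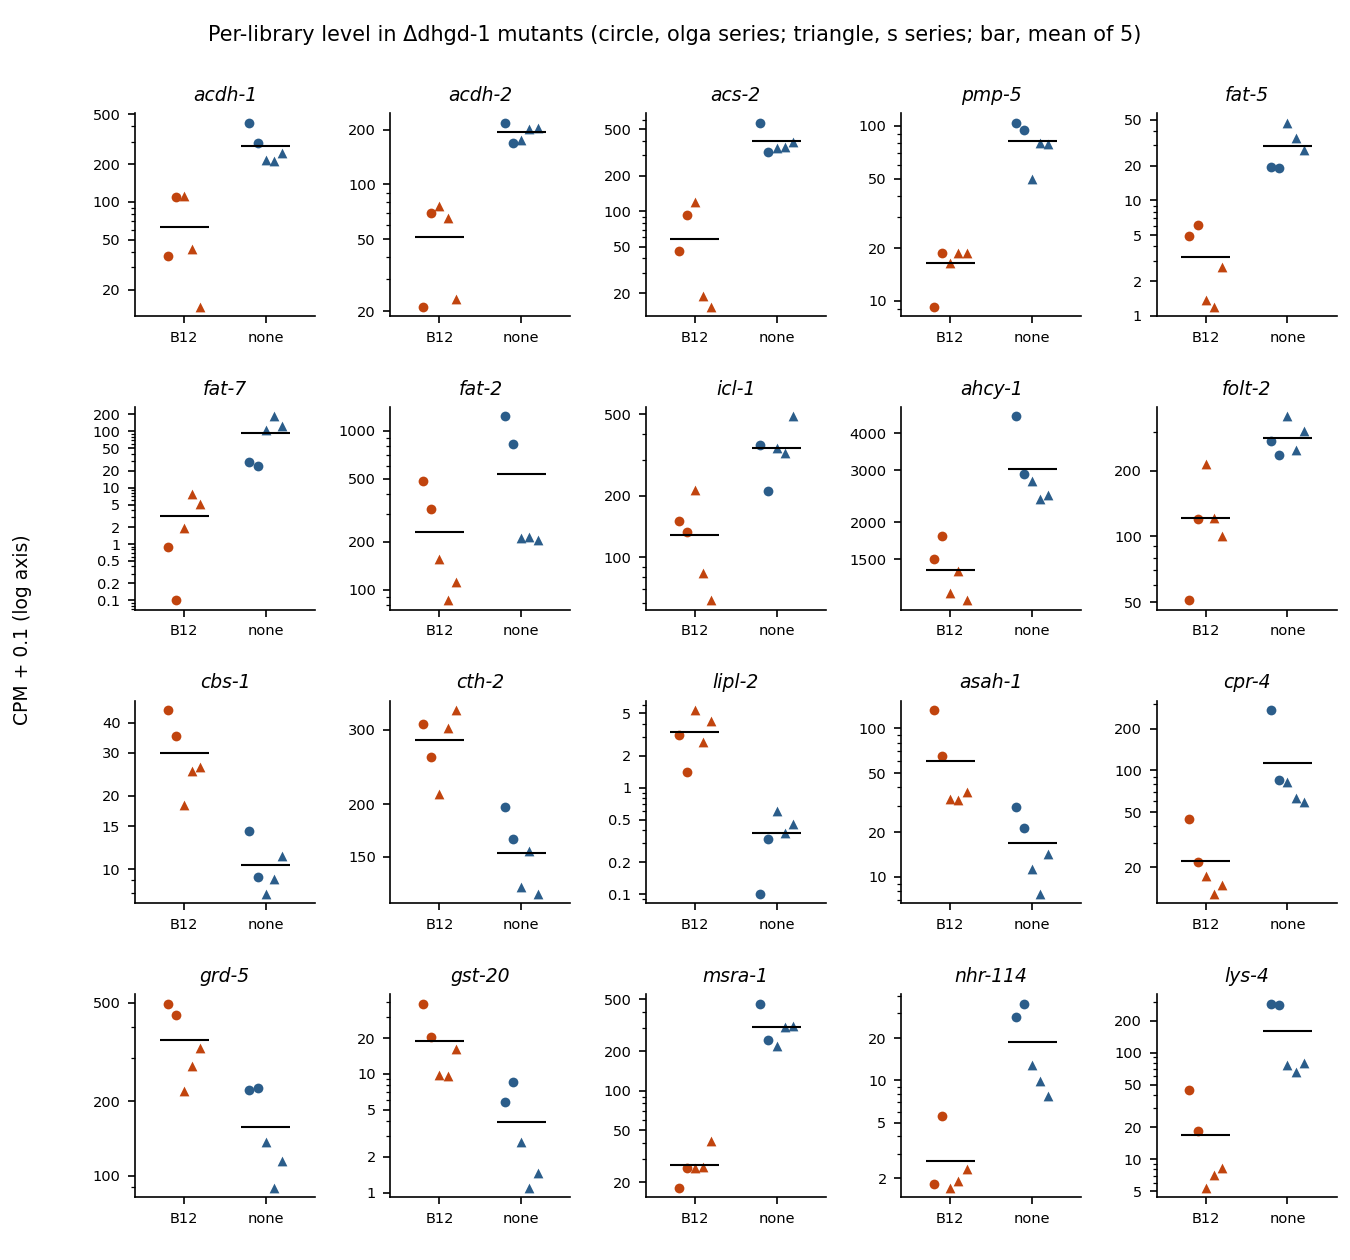
Levels of 20 genes in the 10 *Δdhgd-1* mutant libraries, as CPM plus 0.1 on log axes, supplemented (B12) on the left and unsupplemented (none) on the right of each panel; circles are the olga series, triangles the s series and bars the mean of 5. In *fat-2*, *grd-5* and *icl-1* the groups overlap, while in the other panels every supplemented library lies on the same side of every unsupplemented one.

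Of 7 ketone body genes tested outside the shunt 1 passed, and it was lower. All 7 lay below 0, with a median of -0.65. The number that passed depended on the fit: 4 were lower with DESeq2 and 3 with the mutant libraries alone. *ech-7*, which encodes an enoyl-CoA hydratase, had 36.6, 37.3, 31.8, 16.5 and 26.1 CPM in supplemented mutants, against 72.1, 81.1, 47.4, 40.9 and 42.03 CPM in unsupplemented mutants (log2 fold change -0.87 ± 0.18 (SE), adjusted p = 0.00844). Its groups did not overlap. With the replicate block 3 more members passed: *kat-1*, an acetyl-CoA thiolase gene (log2 fold change -0.75, adjusted p = 0.00923 with the block and 0.0928 without it), *C05C10.3* (log2 fold change -0.81, adjusted p = 0.0198 and 0.0988) and *sur-5*, an acetoacetyl-CoA synthetase gene (log2 fold change -0.65, adjusted p = 0.0239 and 0.122). *C05C10.3* overlaps *pho-11* on the opposite strand, and *pho-11*, named after its values were seen, was higher (log2 fold change 1.48, adjusted p = 0.00747). The 3 remaining members, *hmgs-1*, *Y71G12B.10* and *T02G5.7*, had log2 fold changes of -0.32, -0.15 and -0.07.

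Amino acid breakdown and the mitochondrial core held few calls. Of 14 branched-chain amino acid genes 1 passed, *acdh-2* as given above, and the list's median was -0.10. *acdh-9*, an acyl-CoA dehydrogenase gene, missed the call (log2 fold change -0.84, adjusted p = 0.0708) and passed it with the replicate block (adjusted p = 0.00313). The other members lay between -0.44 (*B0250.5*) and 0.32 (*gta-1*). Of 13 isocitrate and lysine genes, *dhgd-1* was lower (log2 fold change -1.26 ± 0.28 (SE), adjusted p = 0.0155) and *alh-9*, an aldehyde dehydrogenase gene of lysine breakdown, was higher (log2 fold change 0.65, adjusted p = 0.0439). The *dhgd-1* groups overlapped at unsupplemented replicate 6, and the call was lost without supplemented replicate 1 or unsupplemented replicate 2, with an adjusted p of up to 0.065. The *dhgd-1* call was also lost with the mutant libraries alone, with no series covariate and within either series alone (adjusted p up to 0.59). The *alh-9* call was lost on leaving out any of 8 of the 10 mutant libraries (all but supplemented replicate 2 and unsupplemented replicate 6), with an adjusted p of up to 0.152. None of 13 tricarboxylic acid cycle genes (median -0.08) and none of 57 oxidative phosphorylation genes (median -0.08) passed. The mitochondrial pyruvate carrier genes *mpc-1* and *mpc-2*, named after their values were seen, were both lower. *mpc-2* had 36.2, 49.5, 28.9, 22.5 and 22.8 CPM in supplemented mutants, against 121, 117, 42.8, 37.2 and 45.9 CPM in unsupplemented mutants (log2 fold change -1.02 ± 0.20 (SE), adjusted p = 0.00448), overlapping across series, with the olga libraries higher in both groups. The call of *mpc-1* (log2 fold change -0.78, adjusted p = 0.0439) was lost on leaving out any of 8 libraries, all but supplemented replicate 5 and unsupplemented replicate 6 (up to 0.159). *bca-1*, a carbonic anhydrase gene also named after its values were seen, was lower without overlap (log2 fold change -1.14, adjusted p = 3.98e-04). Mitochondrial chaperones and other unfolded protein response genes of the mitochondria held 0 calls among 9 tested.

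Fatty acid metabolism held some of the deepest falls. All 7 desaturase genes tested lay below 0, with a median of -0.59, and 3 passed. *fat-7*, a stearoyl-CoA desaturase gene, had 0.795, 0, 1.79, 7.504 and 5.03 CPM in supplemented mutants, against 28.2, 23.9, 103, 184 and 125 CPM in unsupplemented mutants (log2 fold change -4.88 ± 0.42 (SE), adjusted p = 5.82e-08). The s libraries were higher than the olga libraries in both groups, and within each series the gap was wide. *fat-5*, the palmitoyl-CoA desaturase gene, had 4.77, 6.00, 1.28, 1.10 and 2.55 CPM in supplemented mutants, against 19.3, 19.1, 47.1, 34.4 and 27.1 CPM in unsupplemented mutants (log2 fold change -3.48 ± 0.50 (SE), adjusted p = 1.25e-04). Its level fell to a few CPM in every supplemented library, although genes on the opposite strand overlap it. *fat-2*, which makes linoleic acid from oleic acid, had 484, 321, 156, 85.7 and 112 CPM in supplemented mutants, against 1233, 825, 211, 216 and 207 CPM in unsupplemented mutants (log2 fold change -1.03 ± 0.23 (SE), adjusted p = 0.0114). Here the groups overlapped across series but not within either series, and the call was lost without unsupplemented replicate 1 (adjusted p = 0.06). *fat-1*, *fat-6*, *fat-3* and *fat-4* had log2 fold changes of -0.59, -0.55, -0.35 and -0.15 and did not pass. None of 5 elongase genes passed.

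Genes that activate and burn fatty acids were lower where they passed. Of 48 tested, 5 were lower and none higher, 36 lay below 0 and the median was -0.25. These 5 are *acs-2* and, counted already above, *acdh-1*, *acdh-2*, *ech-6* and *ech-7*, and with the block 8 were lower. *acs-2*, an acyl-CoA synthetase gene known as a target of the nuclear receptor NHR-49, had 45.9, 93.3, 119, 18.9 and 15.3 CPM in supplemented mutants, against 569, 320.2, 344, 356 and 389.8 CPM in unsupplemented mutants (log2 fold change -2.74 ± 0.42 (SE), adjusted p = 2.47e-04). Replicates 6 and 7 were lowest in the supplemented group, and no supplemented library reached the unsupplemented range. *pmp-5*, a peroxisomal ABC transporter gene, had 9.15, 18.8, 16.3, 18.6 and 18.6 CPM in supplemented mutants, against 104.4, 94.2, 49.8, 79.9 and 78.7 CPM in unsupplemented mutants (log2 fold change -2.25 ± 0.23 (SE), adjusted p = 1.04e-06). It was the only call among 34 ABC transporter genes. *icl-1*, the bifunctional enzyme of the glyoxylate cycle, had 151, 134, 213, 83.4 and 61.4 CPM in supplemented mutants, against 353, 209.7, 343, 324 and 489 CPM in unsupplemented mutants (log2 fold change -1.36 ± 0.33 (SE), adjusted p = 0.028). The overlap came from supplemented replicate 5 and unsupplemented replicate 2, and the call was lost without supplemented replicate 6 or 7 or unsupplemented replicate 1 or 7 (adjusted p up to 0.0929). All 5 glyoxylate and gluconeogenesis genes tested lay below 0, and the phosphoenolpyruvate carboxykinase genes *pck-1* (log2 fold change -0.68) and *pck-2* (log2 fold change -0.79) passed only with the block, at adjusted p values of 0.0442 and 0.0289.

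Nuclear hormone receptor genes had 3 calls among 132 tested, all lower, where 1.02% of all tested genes were called lower. In the family 28 lay above 0, and the median was -0.29. *nhr-114*, a receptor tied in *C. elegans* to the activation of methionine and SAM cycle genes, had 1.72, 5.48, 1.62, 1.81 and 2.25 CPM in supplemented mutants, against 28.1, 35.1, 12.8, 9.73 and 7.64 CPM in unsupplemented mutants (log2 fold change -2.68 ± 0.34 (SE), adjusted p = 2.80e-05). Supplemented replicate 2 was the highest of its group but below every unsupplemented library. *nhr-156* was lower (log2 fold change -3.33, adjusted p = 0.00122), with counts near 0 in supplemented mutants. *nhr-3* was lower (log2 fold change -1.11, adjusted p = 0.0162), and its call was lost without supplemented replicate 6 or 7 or unsupplemented replicate 7 (up to 0.106). The shunt activators *nhr-10* and *nhr-68* had log2 fold changes of -0.23 and -0.89 and did not pass. Among 16 metabolic regulators 1 passed, *nhr-114*, and with the block *pqm-1* did too (log2 fold change -1.03, adjusted p = 0.0214 with the block and 0.133 without it).

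Lysosomal hydrolases changed in both directions. Of 33 tested, 5 were higher and 4 lower (6 and 7 with the block), and the median was 0.06. The higher genes were 4 lipid hydrolases and a protease, *asp-14*, and the lower ones were all proteases. *asm-3*, an acid sphingomyelinase gene, had 3.58, 0.782, 3.49, 6.21 and 3.68 CPM in supplemented mutants, against 0.278, 0, 0.0722, 0.182 and 0.3605 CPM in unsupplemented mutants (log2 fold change 4.28 ± 0.53 (SE), adjusted p = 4.23e-05). A gene on the opposite strand overlaps *asm-3*. *asah-1*, an acid ceramidase gene, had 133, 64.7, 33.5, 32.99 and 37.3 CPM in supplemented mutants, against 29.6, 21.1, 11.3, 7.55 and 14.1 CPM in unsupplemented mutants (log2 fold change 1.83 ± 0.27 (SE), adjusted p = 2.02e-04), with the olga libraries higher in both groups and no overlap. The lysosomal lipase gene *lipl-2* had 3.05, 1.30, 5.28, 2.59 and 4.13 CPM in supplemented mutants, against 0, 0.230, 0.505, 0.273 and 0.3605 CPM in unsupplemented mutants (log2 fold change 3.74 ± 0.59 (SE), adjusted p = 4.37e-04). *lipl-1* reached 0.782 to 6.76 CPM in supplemented mutants, against 0 to 0.417 CPM in unsupplemented mutants (log2 fold change 4.25 ± 0.83 (SE), adjusted p = 0.00441). Counted after the values were seen, all 4 *lipl* genes tested lay above 0 and these 2 passed. *mxl-3*, which encodes a repressor of lysosomal lipase genes in *C. elegans* and was also picked out after its values were seen, had 21.9, 64.9, 39.1, 34.8 and 36.0 CPM in supplemented mutants, against 229.5, 129, 132, 86.1 and 99.8 CPM in unsupplemented mutants (log2 fold change -1.70 ± 0.25 (SE), adjusted p = 1.81e-04). No supplemented library of *mxl-3* reached the unsupplemented range.

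Among the proteases, *cpr-4*, encoding a cathepsin B-like protease, had 44.8, 21.6, 17.3, 12.7 and 14.7 CPM in supplemented mutants, against 272, 84.8, 82.6, 62.9 and 58.8 CPM in unsupplemented mutants (log2 fold change -2.25 ± 0.30 (SE), adjusted p = 4.25e-05). *cpr-5* averaged 55.2 ± 15.2 CPM in supplemented mutants and 190.0 ± 65.0 CPM in unsupplemented mutants (SD, n = 5 each) (log2 fold change -1.72 ± 0.23 (SE), adjusted p = 4.19e-05). In both genes replicate 1 was the highest library of its group, and the groups stayed apart. *cpr-1* (log2 fold change -1.29, adjusted p = 0.0439) lost its call on leaving out any of 8 libraries, all but supplemented replicate 1 and unsupplemented replicate 2 (adjusted p up to 0.241). *asp-12*, an aspartyl protease gene, had 0.928, 0.521, 1.53, 2.52 and 1.65 CPM in supplemented mutants, against 6.54, 4.13, 12.2, 28.3 and 12.5 CPM in unsupplemented mutants (log2 fold change -3.04 ± 0.40 (SE), adjusted p = 4.23e-05), while *asp-14* was higher and lost its call without supplemented replicate 1 or unsupplemented replicates 5, 6 or 7 (log2 fold change 1.56, adjusted p = 0.0181, up to 0.0844). Among 7 *cpr* genes tested 3 were lower and none higher.

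Of the 6 *pud* genes listed, named for proteins that increase in *daf-2* mutants, 4 were tested and all were higher, with a median of 3.72. They lie side by side on chromosome V, with *pud-3* at 2324634 to 2325152 and *pud-4* at 2326678 to 2327282 (WBcel235). *pud-3* had 373, 216, 389.8, 476 and 565 CPM in supplemented mutants, against 42.7, 44.6, 31.7, 32.8 and 25.9 CPM in unsupplemented mutants (log2 fold change 3.55 ± 0.29 (SE), adjusted p = 1.86e-08). The groups were far apart. *pud-3* and *pud-4* are members of the same family, and whether they share reads was not tested, so their calls cannot be taken as separate evidence. *pud-1.1* (log2 fold change 3.44) and a *pud-2.2* copy (4.18) were higher with far fewer reads and overlapping groups. They passed the low-count filter only with the wild-type libraries included. A high supplemented level helps a gene pass it, so the count of 4 is partly set by the filter. With the mutant libraries alone, or with the stricter filter, 2 *pud* genes were tested, *pud-3* and *pud-4*, and both were higher. Infection response genes counted with the effectors gave 4 higher and 1 lower of 57 tested. *irg-4* had 18.96, 19.03, 34.9, 38.1 and 39.8 CPM in supplemented mutants, against 4.59, 3.90, 5.49, 5.82 and 6.06 CPM in unsupplemented mutants (log2 fold change 2.55 ± 0.25 (SE), adjusted p = 4.94e-07). *irg-5* was higher with overlapping groups (log2 fold change 2.55, adjusted p = 5.48e-04), and the saposin-like gene *spp-4* was higher without overlap (log2 fold change 1.22, adjusted p = 9.55e-04). *spp-5* (log2 fold change 0.95, adjusted p = 0.0471) and *irg-8*, which was lower (log2 fold change -0.84, adjusted p = 0.0412), lost their calls on leaving out any of 8 libraries (all but supplemented replicate 2 and unsupplemented replicate 1) and any of 9 (all but supplemented replicate 7).

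Lysozymes and C-type lectins, secreted proteins that act on bacterial surfaces or bind sugars, had calls in the lower direction. Of 9 lysozyme genes 2 were lower, and with the block *ilys-5* was higher (log2 fold change 0.65, adjusted p = 0.0119 with the block). *lys-4* had 44.7, 18.2, 5.28, 7.05 and 8.19 CPM in supplemented mutants, against 288, 282, 75.9, 66.2 and 79.5 CPM in unsupplemented mutants (log2 fold change -3.26 ± 0.28 (SE), adjusted p = 5.82e-08), and the olga libraries ran higher than the s libraries in both groups. *lys-6* was lower without overlap (log2 fold change -1.80, adjusted p = 0.00648). Of 65 C-type lectin genes 4 were lower (5 lower and 1 higher with the block), and the family's median was -0.03. *clec-47* had 0.398, 1.56, 1.02, 0.647 and 0.751 CPM in supplemented mutants, against 116, 99.7, 52.7, 63.9 and 66.5 CPM in unsupplemented mutants (log2 fold change -6.48 ± 0.38 (SE), adjusted p = 5.75e-11), which left hardly any reads in supplemented mutants. *clec-70* was near 0 in supplemented mutants (log2 fold change -3.67, adjusted p = 0.00194). The call of *clec-48* (log2 fold change -1.50, adjusted p = 0.0228) was lost without supplemented replicate 2, 5 or 7 or unsupplemented replicate 1 or 5 (up to 0.105), and that of *clec-5* (log2 fold change -1.68, adjusted p = 0.0439) without any of 8 libraries, all but replicate 6 of each group (up to 0.149). Among 36 CUB-like and *dod* genes 2 were higher, *dod-24* (log2 fold change 1.79, adjusted p = 0.00441) and *hpo-15* (log2 fold change 1.02, adjusted p = 0.0491). The *hpo-15* call was lost on leaving out any of 8 libraries, all but supplemented replicate 2 and unsupplemented replicate 1 (up to 0.188).

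Glutathione S-transferases, which conjugate reactive compounds, had 7 of 29 genes higher and none lower (20 above 0, median 0.21). *gst-20* had 39.0, 20.3, 9.70, 9.51 and 16 CPM in supplemented mutants, against 5.71, 8.50, 2.60, 1.00 and 1.37 CPM in unsupplemented mutants (log2 fold change 2.53 ± 0.37 (SE), adjusted p = 1.40e-04). *gst-38* had 3.84, 5.74, 7.06, 3.95 and 8.19 CPM in supplemented mutants, against 0.557, 1.15, 0.794, 0.546 and 1.23 CPM in unsupplemented mutants (log2 fold change 2.80 ± 0.47 (SE), adjusted p = 8.63e-04). No supplemented library of either gene lay as low as its unsupplemented group. *gst-10* was higher without overlap (log2 fold change 2.12, adjusted p = 5.86e-04), and so was the kappa class gene *gstk-1* by its test (log2 fold change 1.12, adjusted p = 0.00915), with overlapping groups. The call of *gst-6* (log2 fold change 1.69) was lost without replicate 7 of either group or supplemented replicate 1 (adjusted p up to 0.0601). Those of *gst-28* (log2 fold change 1.07) and *gst-42* (log2 fold change 1.02) were lost without supplemented replicate 1, 6 or 7 or unsupplemented replicate 5, 6 or 7, and also without unsupplemented replicate 1 for *gst-28* (up to 0.188) and 2 for *gst-42* (up to 0.151). Other detoxification families were mixed. UDP-glucuronosyltransferases gave 1 higher, *ugt-9* (log2 fold change 1.24, adjusted p = 0.0304), and 3 lower, *ugt-2* (log2 fold change -1.21, adjusted p = 0.0405), *ugt-36* (log2 fold change -2.26, adjusted p = 0.0491) and *ugt-50* (log2 fold change -0.75, adjusted p = 0.0225), of 49, and 5 higher and 4 lower with the block. Those calls were lost without supplemented replicate 6 or 7 or unsupplemented replicate 1, 5, 6 or 7 for *ugt-9*, any of 7 libraries for *ugt-2* (all but supplemented replicate 5 and unsupplemented replicates 2 and 6), any of 9 for *ugt-36* (all but supplemented replicate 1), and supplemented replicate 1, 5 or 7 or unsupplemented replicate 1 for *ugt-50*. Short-chain, aldehyde and alcohol dehydrogenases gave 1 higher, *alh-9* as above, and 2 lower of 40, *dhs-5* (log2 fold change -1.37, adjusted p = 0.00873) and *dhs-25* (log2 fold change -1.43, adjusted p = 0.027). The *dhs-25* call was lost without supplemented replicate 1, 6 or 7 or unsupplemented replicate 1 or 2 (up to 0.0837). Of 45 transthyretin-like genes *ttr-44* was higher (log2 fold change 1.30, adjusted p = 0.0304), a call lost on leaving out any of 7 libraries, all but replicate 1 of either group and supplemented replicate 2 (up to 0.127). Cytochromes P450 gave 2 higher, *cyp-37B1* (log2 fold change 2.50) and *cyp-35D1* (log2 fold change 1.87), and 1 lower, *cyp-33C8* (log2 fold change -1.41), of 34 (5 and 1 with the block). The *cyp-35D1* call was lost without supplemented replicate 6 (0.0629) and that of *cyp-33C8* without supplemented replicate 1, 6 or 7 or unsupplemented replicate 5 (up to 0.0825). Metallothionein *mtl-2*, which binds metal ions and is also an intestinal marker, had 394, 117, 189, 136 and 259.7 CPM in supplemented mutants, against 142, 60.6, 73.7, 71.4 and 105 CPM in unsupplemented mutants (log2 fold change 1.31 ± 0.31 (SE), adjusted p = 0.0223). Supplemented replicates 2 and 6 lay below unsupplemented replicate 1, and the call was lost without supplemented replicate 1 or 7 or unsupplemented replicate 2, 5 or 6 (up to 0.13). Of the 10 intestine markers, *mtl-2* was called higher and *cpr-1* lower, and 4 lay below 0.

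Hedgehog-related *grd* genes, which encode secreted proteins related in part to Hedgehog signals, were singled out after their values were seen. All 6 tested were higher, with a median of 2.13. *grd-13* had 3.31, 6.78, 5.19, 8.15 and 17.6 CPM in supplemented mutants, against 0.696, 0.689, 1.37, 1.18 and 1.44 CPM in unsupplemented mutants (log2 fold change 2.91 ± 0.46 (SE), adjusted p = 4.47e-04). *grd-4* had 6.23, 10.2, 6.21, 15.9 and 18.5 CPM in supplemented mutants, against 2.23, 2.99, 2.31, 1.64 and 2.31 CPM in unsupplemented mutants (log2 fold change 2.40 ± 0.32 (SE), adjusted p = 4.23e-05). *grd-5*, the member with the most reads, had 496, 447, 219.5, 278 and 328 CPM in supplemented mutants, against 221, 226, 136, 89.2 and 114.5 CPM in unsupplemented mutants (log2 fold change 1.25 ± 0.19 (SE), adjusted p = 2.88e-04). Only *grd-5* overlapped between groups, and it did so across series: unsupplemented olga libraries lay at the level of supplemented replicate 5. *grd-10* (log2 fold change 2.01, adjusted p = 0.00331) and *grd-14* (log2 fold change 2.26, adjusted p = 4.43e-04) were higher as well, and *grd-3* (log2 fold change 1.05, adjusted p = 0.049) lost its call on leaving out any of 9 libraries, all but unsupplemented replicate 5 (up to 0.137). *grd-13*, *grd-3* and *grd-10* are neighbours on the plus strand of chromosome IV (3438312 to 3441841), and *grd-14* and *grd-4* are neighbours on chromosome X (8500021 to 8502288). The related *wrt* and *grl* genes held no call among 3 and 4 tested. Of the hypodermis markers 5 were tested and 1, *grd-3*, passed; their summed level was 448 to 633 CPM in supplemented mutants and 431 to 503 CPM in unsupplemented mutants, and its part in these values was not tested.

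In 3 large families many members lay on the same side of 0 and few passed. Of 119 neuropeptide and insulin-like peptide genes, 103 lay below 0 (median -0.47). Over all tested genes 1.02% were called lower, and in this list 2 passed, *flp-15* (log2 fold change -1.41, adjusted p = 0.0207) and *ins-13* (log2 fold change -2.09, adjusted p = 0.018). With the block 10 passed, all lower. *ins-13* overlaps *acdh-2* on the same strand, and its call was lost without replicate 1 of either group (up to 0.06). The *flp-15* call was lost without supplemented replicate 2, 6 or 7 or unsupplemented replicate 1, 2 or 7 (up to 0.0745). All 11 neuron markers lay below 0 (median -0.37) and none passed, with summed levels of 446 to 831 CPM in supplemented mutants and 628 to 1081 CPM in unsupplemented mutants. Their part in the neuropeptide values was not tested. Of 79 cytosolic ribosomal protein genes, 77 lay above 0 (median 0.31) and none passed. That median was 0.47 within the s series and 0.02 within the olga series. Cuticle collagens gave 2 higher and 1 lower of 55 (8 and 1 with the block or with the mutant libraries alone, 11 and 2 with no low-count filter), with a median of 0.30 that was 0.56 in the s series and -0.14 in the olga series. *col-43* had 2.65, 3.91, 2.72, 6.28 and 3.83 CPM in supplemented mutants, against 0.278, 0.459, 0.217, 0.637 and 0.288 CPM in unsupplemented mutants (log2 fold change 3.47 ± 0.55 (SE), adjusted p = 4.23e-04). *dpy-17* was lower (log2 fold change -2.67, adjusted p = 5.02e-04), and *col-98* (log2 fold change 1.36, adjusted p = 0.0439) lost its call on leaving out any of 9 libraries, all but supplemented replicate 1 (up to 0.137).

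**Figure D4:**
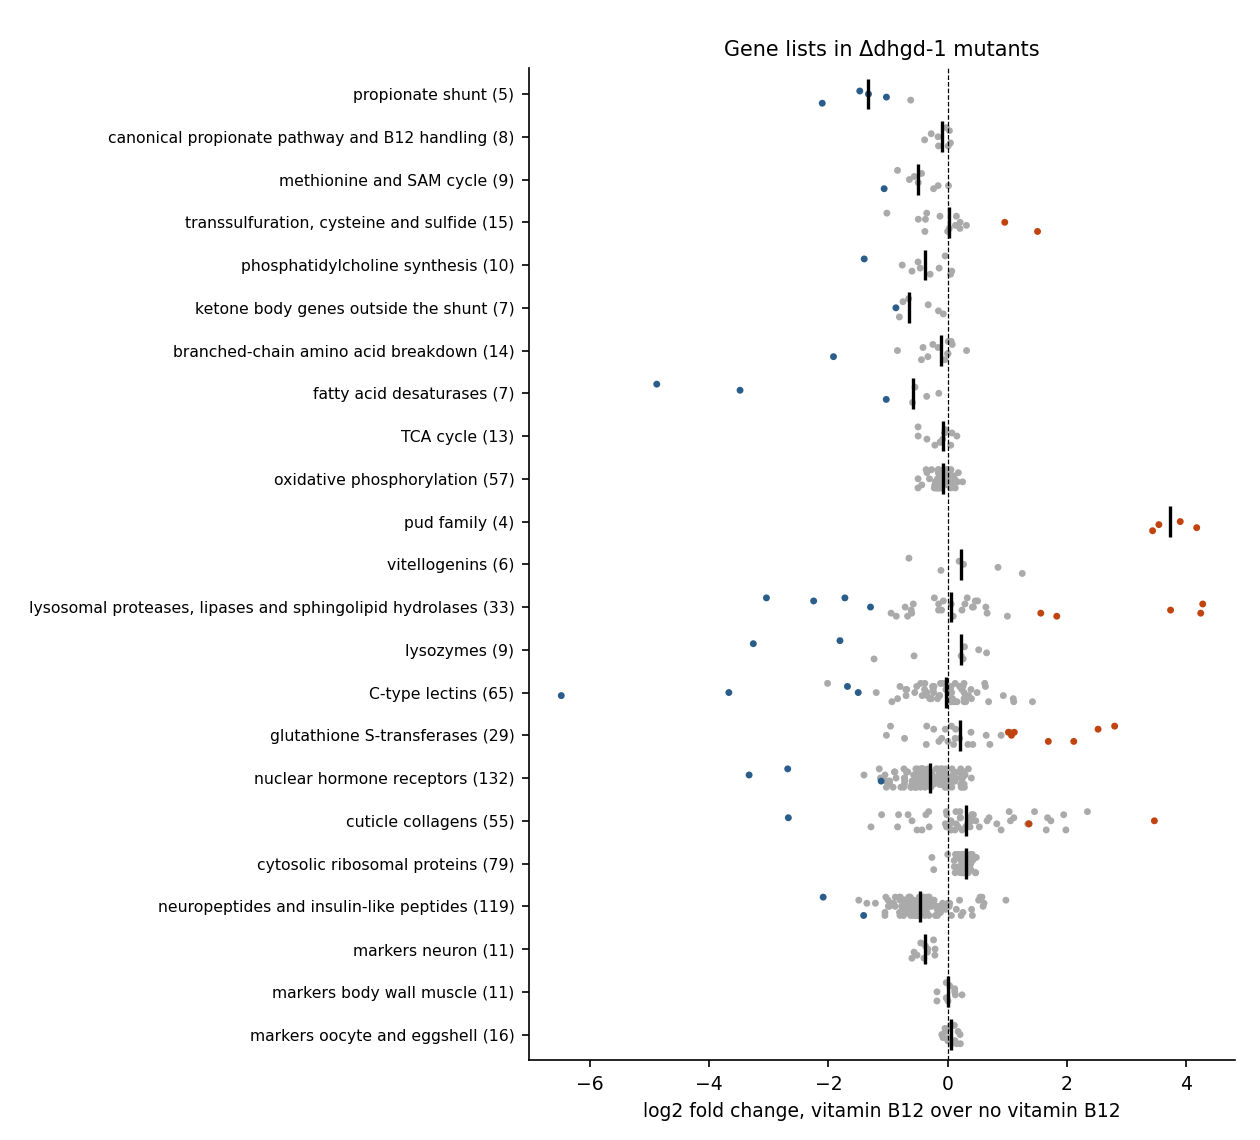
Log2 fold change of supplemented over unsupplemented *Δdhgd-1* mutants (x axis) for the tested members of the gene lists named (rows, number tested in brackets); coloured points passed the test, grey points did not, and bars are medians. The propionate shunt and the desaturases lie below 0 and the *pud* family above it, while most neuropeptide genes lie below 0 and most ribosomal protein genes above it with few or no single genes past the test.

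Families with no call in the fit without the block were the 6 vitellogenins (median 0.23), 44 heat shock and chaperone genes, 12 genes of the unfolded protein response of the endoplasmic reticulum, 8 superoxide dismutase and related genes, 8 lipid-binding protein genes, 121 F-box genes, 6 *pals* genes and 11 trehalose genes. With the block *hsp-12.3* and *lbp-6* were lower and *btb-14*, listed with the F-box genes, was higher, and with the mutant libraries alone 2 vitellogenins were higher.

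The largest remaining changes fell in genes of little known function. *Y38H6C.21* had 1 read in all supplemented mutant libraries together and 587 in the unsupplemented ones, and unsupplemented over supplemented CPM gave a ratio of 606 (95% exact interval 108 to 24000, counting error only). Its neighbour *Y38H6C.23*, at 20555690 to 20556360 on chromosome V against 20554116 to 20555267 for *Y38H6C.21*, had 0.265, 0.261, 0, 0.129 and 0.376 CPM in supplemented mutants, against 5.84, 4.59, 5.71, 3.55 and 6.42 CPM in unsupplemented mutants (log2 fold change -4.63 ± 0.51 (SE), adjusted p = 2.28e-06). Both had few or no reads in supplemented mutants. *clc-24*, a claudin-like gene, had 0.133, 0.261, 0.170, 0.194 and 0.376 CPM in supplemented mutants, against 23.8, 10.6, 4.12, 6.82 and 7.498 CPM in unsupplemented mutants (log2 fold change -5.14 ± 0.52 (SE), adjusted p = 5.52e-07). *ZK593.3* had 0.928, 1.04, 1.87, 1.49 and 1.28 CPM in supplemented mutants, against 19.9, 11.5, 10.8, 13.6 and 16.6 CPM in unsupplemented mutants (log2 fold change -3.37 ± 0.27 (SE), adjusted p = 1.86e-08). The chemoreceptor gene *srh-237* had 0.530, 1.30, 1.53, 0.906 and 1.80 CPM in supplemented mutants, against 26.6, 10.1, 11.9, 10.01 and 10.31 CPM in unsupplemented mutants (log2 fold change -3.32 ± 0.40 (SE), adjusted p = 1.15e-05). In each of these 3 genes the unsupplemented group was higher in every library. *R09H10.7* was lower too (log2 fold change -3.38, adjusted p = 0.00106), and a gene on the opposite strand overlaps it.

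Among the rises, *D1086.3* had 161, 174, 121, 231 and 268 CPM in supplemented mutants, against 27.97, 38.6, 30.9, 34.3 and 20.8 CPM in unsupplemented mutants (log2 fold change 2.73 ± 0.30 (SE), adjusted p = 2.83e-06), with all supplemented libraries well above the unsupplemented ones. *txt-4* had 7.16, 4.95, 3.92, 4.33 and 5.71 CPM in supplemented mutants, against 0.557, 0.919, 0.578, 0.0910 and 0.433 CPM in unsupplemented mutants (log2 fold change 3.45 ± 0.43 (SE), adjusted p = 1.92e-05). *K03H6.9* and *WBGene00023094* overlap *txt-4* on the same strand, so their reads could have been counted with it. *sdz-24* had 15.5, 2.87, 2.98, 3.95 and 7.96 CPM in supplemented mutants, against 1.67, 0.689, 0.505, 0.455 and 0.433 CPM in unsupplemented mutants (log2 fold change 3.23 ± 0.53 (SE), adjusted p = 5.48e-04), with replicate 1 highest in both groups. On the opposite strand, *sri-45* overlaps *sdz-24* and *linc-72* overlaps *F46C5.1*. A single library carried *F46C5.1*: it had 106, 2.09, 2.89, 3.43 and 5.41 CPM in supplemented mutants, against 3.76, 1.61, 0.722, 2.46 and 1.59 CPM in unsupplemented mutants. *F46C5.1* was called higher (log2 fold change 2.78 ± 0.71 (SE), adjusted p = 0.04), but its log2 fold change was 1.11 without supplemented replicate 1 (adjusted p = 0.353). The call was also lost without supplemented replicate 7 or unsupplemented replicate 1, 2, 5 or 7.

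Wild-type animals gave a measure of which of these responses also occur with DHGD-1 present. In wild type, 87 genes were higher (0.772%) and 76 lower (0.674%) with vitamin B12. Of the mutant calls, 44 higher and 50 lower genes were called in wild type too, and 0 in the opposite direction. The wild-type log2 fold change had the same sign for 93 of the 95 higher and 107 of the 115 lower genes. Sign agreement over all tested genes was not counted, and both effects come from the same fit. A test of the difference between strains called 5 genes (0.0444%), so a call in mutants alone does not show a mutant-only response. At an unadjusted p under 0.05 there were 461 of the 11270 tested genes. That share is below the 0.05 that would be met on average with no difference in any gene, but it depended on the fit. The same count was 515 with DESeq2, still below that share, and 778 with the replicate block, above it. With the replicate block 13 differed, the same 5 among them, and DESeq2 called 22. The 5 propionate shunt genes had a median log2 fold change of -1.33 in mutants, with 4 called lower, and -2.10 in wild type, with 5 called lower. None of them was among the 5 genes whose difference was called, and the list as a whole was not tested. For *acdh-1* the log2 fold change was -2.10 in mutants and -4.53 in wild type (difference 2.43, adjusted p = 0.325). For *fat-5* it was -3.48 in mutants and -1.51 in wild type (difference -1.97, adjusted p = 0.683), and for *fat-2* -1.03 and 0.05 (difference -1.07, adjusted p = 0.582). *asp-12* was at -3.04 in mutants and -0.15 in wild type (difference -2.89, adjusted p = 0.116), and *grd-10* at 2.01 and -0.42 (difference 2.43, adjusted p = 0.138). Both differences passed with the block (adjusted p = 0.00542 for *asp-12* and 0.0168 for *grd-10*). So did that of *pud-4*, of the same family as *pud-3*, at 3.90 in mutants and 6.61 in wild type (difference -2.70, adjusted p = 0.09, and 0.0219 with the block).

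Of the 5 genes whose responses differed without the block, 3 fell in mutants and did not change by the test in wild type. *Y41C4A.32* had 6.10, 2.35, 2.98, 2.85 and 5.56 CPM in supplemented mutants, against 74.5, 83.8, 190.4, 107 and 164 CPM in unsupplemented mutants. Its wild-type levels were 6.70, 5.46, 5.33, 1.28 and 1.31 CPM in supplemented wild-type animals, against 3.22, 1.10, 1.81, 2.90 and 1.03 CPM in unsupplemented wild-type animals, and the difference of the log2 fold changes was -5.76, adjusted p = 3.96e-05. The unsupplemented mutant libraries lay above all libraries of the other 3 groups. *warf-1*, related to small GTPases of the ARF family, had 2.65, 2.09, 0.511, 1.16 and 2.10 CPM in supplemented mutants, against 14.9, 28.9, 45.6, 17.1 and 40.2 CPM in unsupplemented mutants. Its levels were 2.11, 1.32, 2.17, 0.459 and 0.188 CPM in supplemented wild-type animals, against 0.967, 0.274, 1.34, 1.37 and 0.396 CPM in unsupplemented wild-type animals, and the difference was -4.41, adjusted p = 0.0228. *suro-1* had 1.59, 2.09, 5.45, 2.72 and 2.25 CPM in supplemented mutants, against 14.6, 7.35, 7.51, 11.6 and 13.6 CPM in unsupplemented mutants. It had 3.88, 1.69, 3.88, 4.403 and 4.04 CPM in supplemented wild-type animals, against 1.61, 0.823, 2.29, 2.29 and 3.24 CPM in unsupplemented wild-type animals, and the difference was -2.68, adjusted p = 0.0187. As for *Y41C4A.32*, unsupplemented mutants were above all other libraries in both genes. All 3 overlap a gene on the opposite strand, *Y41C4A.26*, *nep-16* and *pck-2* in that order. *warf-1* and *suro-1* lost the call within either library series alone and with no series covariate, and *Y41C4A.32* within the olga series.

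Both remaining genes rose in wild type, and *pud-3* rose in mutants too, as given above. *pud-3* had 874, 458, 378, 598 and 896 CPM in supplemented wild-type animals, against 4.19, 4.39, 7.54, 4.28 and 7.04 CPM in unsupplemented wild-type animals, and its difference was -3.27, adjusted p = 7.55e-05. Supplemented levels overlapped between the strains, and every unsupplemented mutant library lay above every unsupplemented wild-type library. The lysozyme gene *lys-2* had 446, 441, 552, 349.5 and 610.1 CPM in supplemented mutants, against 360.4, 387, 571, 354 and 357 CPM in unsupplemented mutants (log2 fold change 0.28, adjusted p = 0.673). In wild type it had 504, 346, 498, 389.8 and 629 CPM in supplemented wild-type animals, against 157, 131, 117, 123 and 201 CPM in unsupplemented wild-type animals, and the difference was -1.38, adjusted p = 0.0426. Every mutant library lay above every unsupplemented wild-type library, whether supplemented or not. The *lys-2* difference was lost on leaving out any of 8 of the 10 mutant libraries, with an adjusted p of up to 0.14. The exceptions were supplemented replicate 7 and unsupplemented replicate 6. The *lys-2* difference was also lost with DESeq2 size factors, library totals alone, no series covariate and either series alone (adjusted p up to 0.846). The *pud-3* difference was kept on leaving out each mutant library but lost within either series alone.

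**Figure D5:**
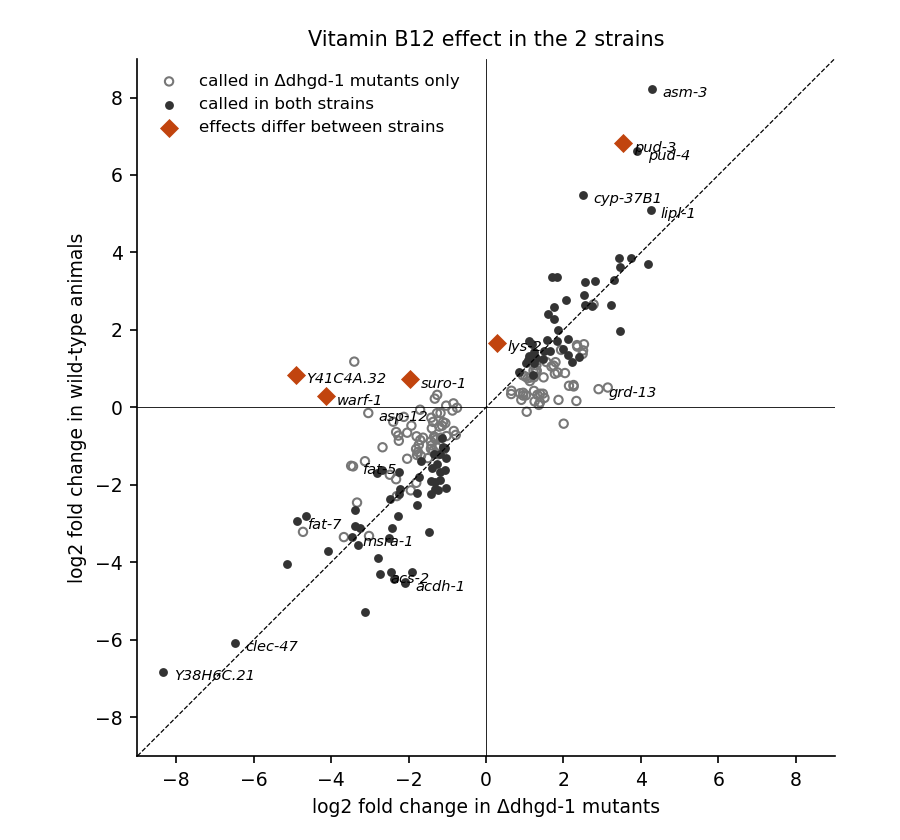
Log2 fold change with vitamin B12 in *Δdhgd-1* mutants (x axis) and in wild-type animals (y axis) for the 210 genes called in mutants and *lys-2*; filled points were called in both strains, open points in mutants alone, and diamonds mark the 5 genes whose effects differed by the test. The dashed line marks equal effects, and the axes share no libraries but come from the same fit.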

How the data were processed

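The authors prepared Cel-seq2 libraries, which read the 3′ end of transcripts, trimmed them with Trimmomatic 0.32, aligned them with STAR, counted genes with ESAT without pseudogenes, and deposited raw read counts per gene. Which STAR and ESAT versions and build were used, and whether counting used strand, is not given in the sources used here. The methods name a NextSeq for 2 replicates and an MGISEQ for 3, but no label gives a library's sequencer, so the library name series (olga, s) served as batch.

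From the deposited counts, 22497 of 22736 identifiers were matched to symbols of the WBcel235 annotation, and coordinates come from it. Genes passing filterByExpr by group (11270) were fitted with TMM scaling, group and library series over all 20 libraries in edgeR 4.0.16 (R 4.3.3, limma 3.58.1), with quasi-likelihood tests of supplemented minus unsupplemented mutants, the same in wild type, and their difference. Calls need a Benjamini-Hochberg adjusted p under 0.05 and, except for the difference, a fold over 1.5. The script was tested on simulated data. Library totals were 2837943 to 15457950 counts, and 3 counts is taken as the floor. Figures were drawn with matplotlib 3.10.9.

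The rule for naming took the 12 largest rises and 12 largest falls among calls. These calls averaged 20 or more counts in the 10 mutant libraries and kept their direction in all 5 pairs of equal replicate number. Called members of the gene lists could be named. So could any member of the shunt, canonical propionate, methionine, phosphatidylcholine, ketone body and branched-chain lists. Other names were added after values were seen, and not all are marked so. Unmarked are list members that passed only with the block, such as *pck-1* and *pqm-1*. Also unmarked are members that did not pass, such as *fat-1*, *nhr-10* and *nhr-68*. *suro-1* and *lys-2* were named for the difference between strains. The comparison, its members and the lists were chosen with earlier results of these data known. Replicate numbers come from the labels and were used as pairs in the replicate block. Deviations of same-numbered mutant libraries from their group means correlated at 0.716, 0.499, 0.494, 0.628 and 0.325 for replicates 1, 2, 5, 6 and 7. With the series mean removed as well, they correlated at 0.365, 0.365, 0.218, 0.291 and 0.106. There replicates 1 and 2 give a single value, because with 2 olga libraries per group their deviations mirror each other. Replicate 7 correlated better with another number (0.122). Alternatives were DESeq2 size factors, library totals, no filter, a stricter filter, DESeq2 1.42.0, mutant libraries only, no series term, the replicate block, each series alone and each mutant library left out, and, added after seeing the data, DESeq2 with the block.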

Additional observations from a re-analysis of the deposited data

Results flagged for a closer look

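Among 64 named genes in the 2 mutant groups, 13 of 128 groups had a library whose gap to its nearest neighbour, as a share of the group's range, exceeded Dixon's 95% critical value. By construction chance gives about 1 in 20 for independent groups of normal values, and these groups share libraries. In supplemented mutants, replicate 1 was far above the others for *F46C5.1* (105.7 CPM, the next 5.41), *cpr-4* (44.8 CPM, the next 21.6), *cpr-5* (81.8 CPM, the next 53.5) and *Y38H6C.21* (0.133 CPM, a single read, the others 0), and far below them for *pmp-5* (9.15 CPM, the next 16.3). Supplemented replicate 2 was far above its group for *nhr-114* (5.48 CPM, the next 2.25). In unsupplemented mutants, replicate 1 stood above the others for *acs-2* (568.8 CPM, the next 389.8), *ahcy-1* (4556 CPM, the next 2903), *cpr-4* (271.9 CPM, the next 84.8), *sdz-24* (1.67 CPM, the next 0.689) and *srh-237* (26.6 CPM, the next 11.9). Unsupplemented replicate 5 stood above its group for *irg-5* (2.82 CPM, the next 1.00) and *lys-2* (570.7 CPM, the next 387.3).

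The vitamin B12 effect differed between mutants and wild type for 5 genes, by the test of the difference of log2 fold changes (mutants minus wild type): *Y41C4A.32* (-5.76), *warf-1* (-4.41), *pud-3* (-3.27), *suro-1* (-2.68) and *lys-2* (-1.38). *Y41C4A.32*, *warf-1* and *suro-1* fell in mutants, *lys-2* rose in wild type, and *pud-3* rose in both strains, by less in mutants.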

How the results depend on the processing

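Against 210 calls (95 higher, 115 lower) and 5 differences between strains, the replicate block, which pairs same-numbered libraries, gave 372 calls (151 and 221) and 13 differences; DESeq2 gave 311 calls and 22 differences and, with the block, chosen after seeing the data, 493 calls (187 and 306) and 37 differences. No low-count filter gave 413 calls (170 and 243) and 80 differences. Without the series term there were 85 calls (34 and 51) and 2 differences. The olga series alone (2 against 2 libraries) gave 8 calls (1 and 7) and 0 differences, with 190 of 190 tested calls of the full fit on the same side of 0; that fit rests on fewer libraries. The s series alone gave 119 calls, 45 of them lower, and 1 difference, with 62.2% of calls higher against 45.2%. Leaving out a mutant library gave 54 to 103 higher genes, the lowest without replicate 7 of the supplemented (54) or unsupplemented group (57). With library totals alone 77 were higher and 118 lower. No called gene named in the text reversed its sign under any alternative run, but medians of 22 of the 49 lists did in at least 1 setting, such as cuticle collagens and UDP-glucuronosyltransferases in the olga series. Depth limits genes of a few counts, such as *lipl-1* or *clec-70*, to a direction with a wide error.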

Other observations

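Other families counted after their values were seen held few calls. Of 44 chemoreceptor genes tested, 1 was higher and 4 were lower, of 17 claudin-like *clc* genes 1 was lower, and of 66 mitochondrial ribosomal protein genes none passed. *sysm-1* had 78.5, 68.3, 82.3, 16.04 and 77.6 CPM in supplemented mutants, against 14.6, 40.4, 20.5, 6.10 and 15.5 CPM in unsupplemented mutants, and replicate 6 was lowest in both groups. Its log2 fold change was 1.82 with an adjusted p of 0.038, a call lost on leaving out any of 8 of the 10 libraries, all but supplemented replicate 6 and unsupplemented replicate 2 (up to 0.123). *kmo-1*, the kynurenine monooxygenase gene of tryptophan breakdown, had 16.7, 11.7, 6.89, 13.7 and 18.5 CPM in supplemented mutants, against 7.38, 6.20, 5.99, 6.64 and 5.26 CPM in unsupplemented mutants, a log2 fold change of 1.15 with an adjusted p of 0.00872 that was 0.0701 without supplemented replicate 7. *pudl-2*, related to the *pud* genes that rose, fell by 2.12 on the log2 scale. These genes were picked for their values, and no explanation was tested.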
